A study of Mus musculus with 12 samples.

Results

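Gast, Cckbr, Hdc and Hrh2 encode the successive steps by which the hormone gastrin drives histamine release and acid secretion in the stomach. All probe sets that the platform annotation assigns to these 4 genes were taken, each on its own: 1 for Gast, 2 for Cckbr, 2 for Hdc and 1 for Hrh2. They make 6 of the 22690 probe sets of the array, of which 22626 were tested, and 0 probe sets with several symbols included any of the 4 genes. The rule used no measured value.

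RNA came from scrapings of the fundic mucosa, the lining of the acid-secreting part of the mouse stomach, and each of 12 one-colour short-oligonucleotide arrays held 1 sample. The 4 groups of 3 arrays were wild type, gastrin knockout infused with saline for 1 week, gastrin knockout infused with gastrin for 1 week, and a double knockout lacking gastrin and cholecystokinin (CCK), for which no infusion is mentioned. Gastrin gene loss was therefore common to all 3 mutant groups, and the gastrin-infused mice received the peptide while still lacking the gene. The labels give male mice aged 2 months for the saline-infused group. They describe each wild-type sample as drawn from about 2 to 4 mice. The sources used here do not give age, sex or pooling for the remaining groups, the strain, or which part of each gene was deleted. Nothing in the labels says that the replicates came from separate animals, so the p-values reflect just the variation among these samples, part or all of which may be technical.

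Gastrin is made by G cells of the antrum, the part of the stomach next to the intestine, and reaches the fundus through the blood. There it binds the CCK2 receptor, the product of Cckbr, on enterochromaffin-like (ECL) cells and on parietal cells. ECL cells make histamine with histidine decarboxylase, the product of Hdc, and the released histamine acts on the H2 receptor, the product of Hrh2, of neighbouring parietal cells, which then secrete acid. Somatostatin from D cells restrains both the G cell and the ECL cell.

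The arrays were similar in brightness, with medians between 403 and 421 intensity units, and replicates of a group correlated between 0.955 and 0.973. The noise level, taken from the size of the negative values of each array, lay between 67.0 and 96.0. Markers of the acid-secreting mucosa were abundant in all groups: Atp4a, the catalytic subunit of the gastric proton pump, lay between 35107 and 68031. The double-knockout arrays stood apart, since the hybridisation control BioC read 1784 to 2307 there and 4435 to 7472 on the other 9 arrays, and their highest intensities were 65365 to 71514 against 88899 to 113441. The control BioB went the other way, with 519 to 793 there and 59 to 197 on the other 9 at its 3' probe set. What set these arrays apart and the genotype cannot be told apart, so the comparison of arrays with and without gastrin peptide is also given without the double knockout.

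The ligand gene checked the labels. Gast read 596, 318 and 823 on the wild-type arrays and 37, -8 and 31 in the saline-infused knockout. It read -72, -34 and -43 in the gastrin-infused knockout and -64, -35 and -162 in the double knockout. All 9 knockout values lay within the noise and below each of the 3 wild-type values. The mean was 579 ± 253 (SD, n = 3) in wild type and 20.0 ± 24.4 (n = 3) in the saline-infused knockout, at least 5.94-fold lower (limma, adjusted p = 0.00236). It was at least 6.06-fold lower than wild type in the gastrin-infused knockout (adjusted p = 0.00146) and at least 7.18-fold lower in the double knockout (adjusted p = 0.000547). Bounds are given because a value within the noise has only an upper limit. Infused peptide was thus not accompanied by a readable Gast signal. Cck, the second gene deleted in the double knockout, lay between -9 and 130 over all 12 arrays and was low in wild type too (17, 98 and 48), so that its probe set checks nothing about the CCK deletion.

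**Figure D1:**
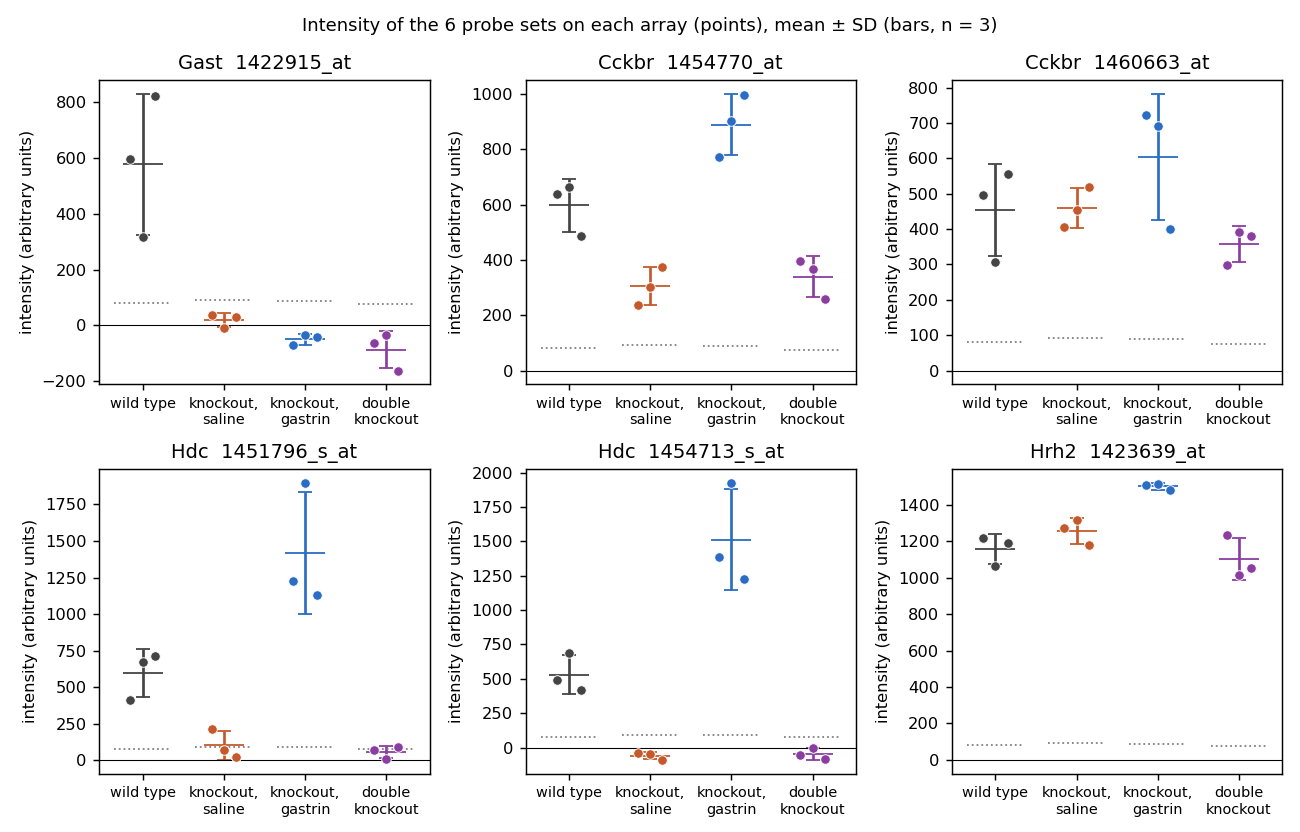
Deposited intensity of the 6 probe sets of Gast, Cckbr, Hdc and Hrh2 on each of the 12 arrays, by group; points are arrays, bars the group mean ± SD (n = 3) and dotted lines the mean noise level. Gast is readable in wild type only, the second Hdc probe set lies below 0 in both groups without gastrin peptide, and the second Cckbr probe set overlaps between most groups.

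The 6 probe sets were compared between groups with a model fitted to all 22626 probe sets of the array (limma, Benjamini-Hochberg adjustment, threshold 0.05). In the saline-infused knockout relative to wild type, 2 of the 6 passed, both lower, where 1.37% of all probe sets passed as lower. In gastrin infusion against saline infusion, 2 passed, both higher, where 0.773% passed as higher. In the double knockout against wild type, 3 passed, all lower, where 2.12% passed as lower. Gast is among the lower ones in both comparisons with wild type. The arrays of the 2 groups did not overlap for 4 of the 6 in each of these 3 comparisons, where 11.9%, 10.2% and 12.5% of all probe sets were apart in the same direction. Between the double knockout and the saline-infused knockout, 0 of the 6 passed, where 5.98% of all probe sets passed in either direction. The count there was also 0 at an unadjusted p under 0.05, leaving aside 2 probe sets with both groups within the noise. Under infusion the probe sets that passed were 1 of Cckbr and 1 of Hdc, and against wild type they were Gast and Hdc. With only the 2 groups of a comparison in the fit, the Gast call against wild type was lost in the saline-infused knockout (adjusted p = 0.0857). It was lost in the gastrin-infused knockout as well (adjusted p = 0.0986). Gast values of the gastrin-infused and double knockouts were all raised to 16 before the fit and had no spread there.

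**Figure D2:**
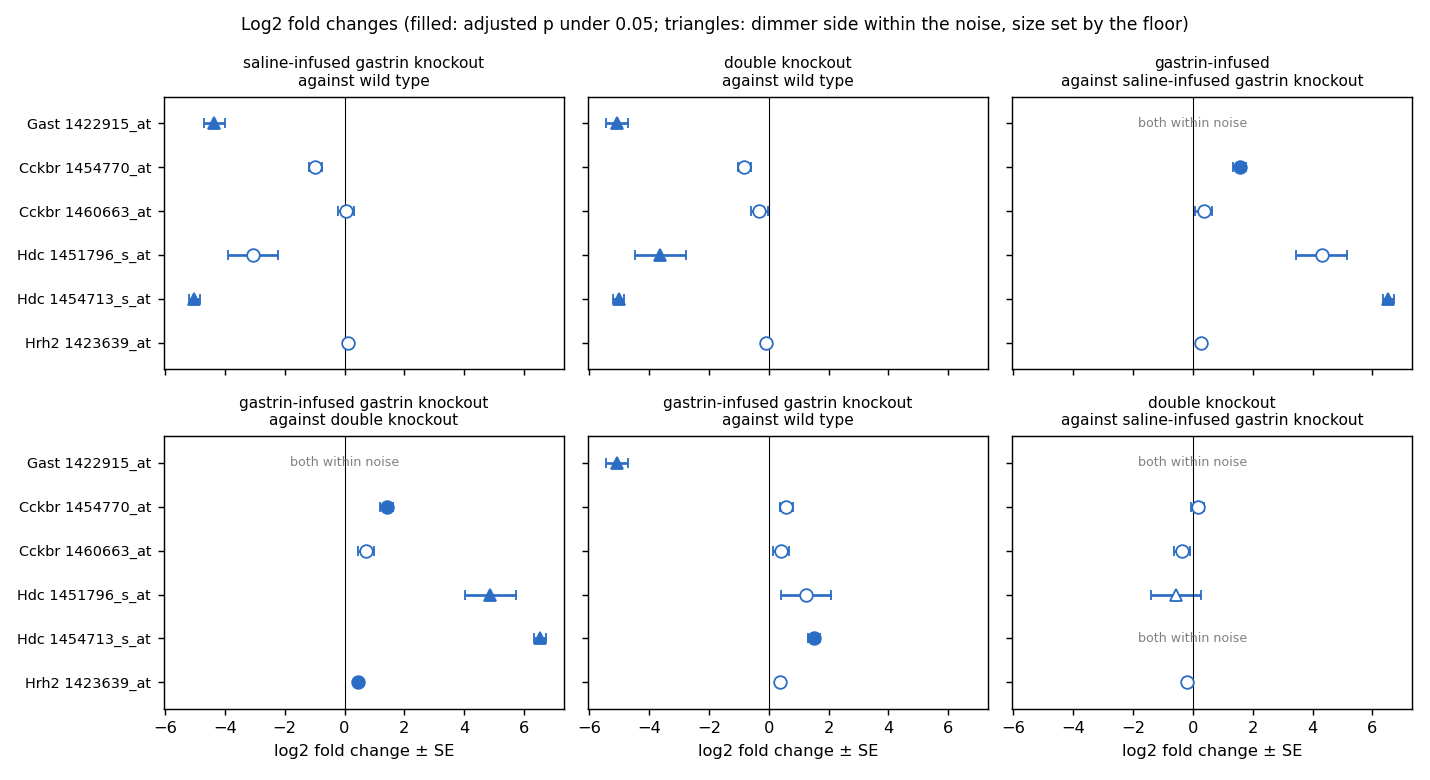
Log2 fold change of the 6 probe sets in the 6 comparisons between groups; bars are SE, filled symbols passed the threshold and triangles mark a side within the noise. Hrh2 stays between -0.19 and 0.45, while the triangles of the second Hdc probe set lie far from 0 at a place that the floor sets.

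Cckbr encodes the CCK2 receptor, which binds gastrin. Its first probe set (1454770_at) read 639, 665 and 488 in wild type and 237, 304 and 374 in the saline-infused knockout. It read 773, 901 and 996 in the gastrin-infused knockout and 396, 367 and 257 in the double knockout. The 6 arrays without gastrin peptide were the lowest, the 3 wild-type arrays came next and the 3 gastrin-infused arrays were the highest, with no overlap between these 3 tiers. The saline-infused knockout and the double knockout overlapped. Means were 597 ± 95.6 in wild type, 305 ± 68.5 with saline, 890 ± 112 with gastrin and 340 ± 73.3 in the double knockout (SD, n = 3 each). Saline-infused and double-knockout mice thus had 51.1% and 56.9% of the wild-type level, and gastrin-infused mice had 149%.

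Under gastrin infusion this Cckbr probe set rose by a log2 fold change of 1.56 ± 0.22 (SE) over saline infusion (limma, adjusted p = 0.0213), which is 2.95-fold. Against the double knockout the difference was 1.41 ± 0.22 (adjusted p = 0.0106). The comparisons with wild type did not pass: the saline-infused knockout differed by -0.98 ± 0.22 (adjusted p = 0.0582), the double knockout by -0.82 ± 0.22 (adjusted p = 0.0723) and the gastrin-infused knockout by 0.58 ± 0.22 (adjusted p = 0.357). The double knockout and the saline-infused knockout differed by 0.16, with a 95% interval from -0.34 to 0.65. The call under infusion was lost without saline-infused replicate 1 (adjusted p = 0.0573), gastrin-infused replicate 2 (0.0648) or gastrin-infused replicate 3 (0.0622), and with only the 2 groups compared (0.0978). With the dimmer probe sets filtered out before testing, the falls in the saline-infused and double knockouts passed (adjusted p = 0.0126 and 0.0209).

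The second Cckbr probe set (1460663_at) gave another picture. It read 496, 308 and 557 in wild type, 407, 453 and 518 with saline, 723, 692 and 399 with gastrin, and 299, 393 and 380 in the double knockout. Wild type and saline-infused knockout overlapped fully, with means of 454 ± 130 and 459 ± 55.8 (SD, n = 3). Its difference between them was 0.06 ± 0.28 (adjusted p = 0.962, 95% interval -0.57 to 0.68), and that of gastrin over saline infusion was 0.35 ± 0.28 (adjusted p = 0.595). By limma 0 of the 7 comparisons passed for it, and the sign of its difference between the saline-infused knockout and wild type turned when wild-type replicate 2 was left out (-0.20). That array had the highest ratio of 3' to 5' Gapdh signal, 2.00, a measure of RNA integrity that lay between 0.983 and 1.51 on all other arrays. With this ratio as a covariate the difference was -0.28 (adjusted p = 0.703). The log2 difference of the first minus the second probe set averaged 0.51 over the 6 arrays with gastrin peptide and -0.35 over the 6 without (exact two-sided permutation test, p = 0.0216, also 0.0216 after adjustment over the 2 genes with 2 probe sets). The files do not say which stretch of the transcript each probe set reads.

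In the RefSeq annotation of build GRCm38.p6 Cckbr starts on the forward strand. The 250 bases before and 50 after its annotated start, at chr7:105425481-105425780, are shown because 1 of the 2 Cckbr probe sets was higher with the gastrin peptide. They are printed 5' to 3' in lower case.
Cckbr: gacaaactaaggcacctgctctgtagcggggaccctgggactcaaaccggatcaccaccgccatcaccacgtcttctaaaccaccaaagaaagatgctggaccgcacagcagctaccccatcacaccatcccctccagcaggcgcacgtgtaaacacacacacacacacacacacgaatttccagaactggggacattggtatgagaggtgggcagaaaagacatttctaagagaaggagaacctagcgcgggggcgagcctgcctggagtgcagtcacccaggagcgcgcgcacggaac
On either strand the window holds none of 4 motifs searched: TATAAA (present in 13.6% of the 32851 promoters of the same length), GGGCGG (35.7%), TGACG (20.8%) and TGANTCA (7.81%). Its GC content is 57.0%.

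Hdc encodes histidine decarboxylase, which makes histamine from histidine. The second Hdc probe set (1454713_s_at) read 490, 686 and 416 in wild type and 1390, 1926 and 1225 in the gastrin-infused knockout. It read -40, -48 and -90 in the saline-infused knockout and -54, -2 and -86 in the double knockout. All 6 arrays without gastrin peptide were below 0, and all gastrin-infused arrays were above all wild-type arrays. The means were 531 ± 140 in wild type and 1514 ± 366 with gastrin (SD, n = 3 each), or 285% of wild type.

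Against wild type this probe set was at least 5.73-fold lower in the saline-infused knockout (limma, adjusted p = 9.76e-06) and at least 6.92-fold lower in the double knockout (adjusted p = 1.70e-05). Gastrin infusion brought it to at least 16.4-fold the saline-infused level (adjusted p = 1.81e-06). Against the double knockout it was at least 19.8-fold higher. Values under 16 were raised to 16 before the fit, so the groups below that floor had no spread of their own, which makes the SE of 0.20 on the log2 scale smaller than replicates would give. On a generalised logarithm, which needs no floor, the adjusted p was 0.000775 for the saline-infused knockout and 6.27e-05 for gastrin over saline. Between the saline-infused and the double knockout no fold can be given, since both lay within the noise.

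Gastrin-infused mice also exceeded wild type for the second Hdc probe set, by 1.52 ± 0.20 on the log2 scale (adjusted p = 0.0307). In that comparison 2 of the 6 probe sets passed, this one higher and Gast lower, where 0.11% of all probe sets passed in either direction. This call was lost without wild-type replicate 1 or 3 or gastrin-infused replicate 1 or 2 (adjusted p from 0.0546 to 0.0968). On the generalised logarithm the adjusted p was 0.234.

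The first Hdc probe set (1451796_s_at) showed the same order with more spread. It read 413, 672 and 717 in wild type, 212, 73 and 22 with saline, 1229, 1897 and 1133 with gastrin, and 71, 12 and 93 in the double knockout. The saline-infused and double-knockout arrays overlapped, the wild-type arrays lay above them, and the gastrin-infused arrays lay above wild type. Group means were 601 ± 164, 102 ± 98.3, 1420 ± 416 and 58.7 ± 41.9 in that order (SD, n = 3 each).

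Gastrin infusion against saline gave 4.31 ± 0.85 for this probe set (adjusted p = 0.0506), and the saline-infused knockout differed from wild type by -3.06 ± 0.85 (adjusted p = 0.107). The double knockout, where 2 of 3 arrays and the group mean lay within the noise, was lower than wild type by at least 7.56-fold (adjusted p = 0.0493). Against the double knockout, gastrin-infused mice were at least 17.9-fold higher (adjusted p = 0.0150, or 0.0548 without gastrin-infused replicate 2). The difference from wild type in gastrin-infused mice was 1.24 ± 0.85 (adjusted p = 0.628), with a 95% interval from -0.67 to 3.16. Raising the floor from 16 to 64 brought the first 2 of these past the threshold (adjusted p = 0.0101 and 0.0277), and the fall in the double knockout was lost when any 1 of the 6 arrays compared was left out (adjusted p from 0.0747 to 0.130).

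Both Hdc probe sets carry the suffix _s_at, by which the array maker marks probes that can match more than 1 transcript. No difference between the Hdc probe sets is given, since the second lay below 0 on all 6 arrays without the peptide. In bulk tissue, fewer ECL cells and less Hdc RNA per cell cannot be told apart.

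The Hdc promoter window lies on the reverse strand at chr2:126618629-126618928 (GRCm38.p6, RefSeq). It is shown because both Hdc probe sets were higher with the gastrin peptide. Capitals mark GGGCGG, the core of the binding site of Sp1-family factors.
Hdc: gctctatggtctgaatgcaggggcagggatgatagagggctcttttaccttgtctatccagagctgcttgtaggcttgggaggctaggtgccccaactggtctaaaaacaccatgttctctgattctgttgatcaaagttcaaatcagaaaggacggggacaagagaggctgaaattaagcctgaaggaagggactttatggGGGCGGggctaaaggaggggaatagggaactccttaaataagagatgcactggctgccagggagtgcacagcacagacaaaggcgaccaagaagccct
The capital letters begin 48 bases before the annotated start. GGGCGG is found in 35.7% of all promoters of this length, and the window, with a GC content of 50.7%, holds none of the other 3 motifs.

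Hrh2 encodes the histamine H2 receptor, through which parietal cells receive the histamine signal. Its probe set (1423639_at) read 1221, 1065 and 1191 in wild type and 1274, 1320 and 1180 in the saline-infused knockout. It read 1512, 1514 and 1481 in the gastrin-infused knockout and 1234, 1018 and 1055 in the double knockout. The gastrin-infused arrays lay above all 9 others, and the remaining 3 groups overlapped with one another. The means were 1159 ± 82.8, 1258 ± 71.4, 1502 ± 18.5 and 1102 ± 116 (SD, n = 3 each), so that gastrin-infused mice had 130% of the wild-type level.

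For Hrh2 the differences of the groups without peptide from wild type did not pass. The saline-infused knockout differed by 0.12 ± 0.09 (adjusted p = 0.529, 95% interval -0.08 to 0.32) and the double knockout by -0.07 ± 0.09 (adjusted p = 0.706, 95% interval -0.27 to 0.13). Gastrin over saline infusion gave 0.26 ± 0.09 (adjusted p = 0.198), and gastrin-infused mice against wild type 0.38 ± 0.09 (adjusted p = 0.191), neither of which passed although the arrays did not overlap. Against the double knockout Hrh2 was higher by 0.45 ± 0.09 (adjusted p = 0.0229). There 4 of the 6 probe sets passed, all higher, where 2.75% of all probe sets passed as higher. The Hrh2 call in that comparison was lost without any of the gastrin-infused arrays or without double-knockout replicate 2 or 3.

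RefSeq gives Hrh2 2 start sites on the forward strand. The window of the first, at chr13:54191883-54192182 (GRCm38.p6), is shown for comparison with Hdc, the enzyme gene of the same signal. Capitals again mark GGGCGG.
Hrh2: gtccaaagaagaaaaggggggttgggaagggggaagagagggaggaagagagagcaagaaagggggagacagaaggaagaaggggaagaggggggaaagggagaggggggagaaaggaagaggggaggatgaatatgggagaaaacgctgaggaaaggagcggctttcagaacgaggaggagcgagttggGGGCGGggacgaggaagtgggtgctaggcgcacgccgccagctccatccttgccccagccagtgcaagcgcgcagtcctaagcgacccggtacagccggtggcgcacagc
The match begins 60 bases before the start, and the GC content is 61.3%. Hdc and Hrh2 thus share this motif and Cckbr lacks it. The Gast window, at chr11:100334157-100334456 on the forward strand, holds TATAAA on the opposite strand 28 bases before the start.

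The 6 arrays with gastrin peptide, wild type and gastrin-infused, were then set against the 6 without it. Of the 5 probe sets other than Gast, 3 passed, all higher with the peptide, where 2.59% of all probe sets passed as higher. These were the first Cckbr probe set, at 1.19 ± 0.15 on the log2 scale (adjusted p = 0.00718), and both Hdc probe sets, at 3.97 ± 0.60 (adjusted p = 0.0126) and at least 10.7-fold (adjusted p = 2.40e-07). For these 3 the 6 higher arrays did not overlap with the 6 lower, a property that 1.44% of all probe sets had in this direction. Cckbr lay between 488 and 996 (median 719) with the peptide and between 237 and 396 (median 335.5) without it.

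The exact two-sided permutation test over the 924 splits of these arrays gave p = 0.00216 for each of the 3, the smallest it can give, and 0.00361 after adjustment over the 5 probe sets. This value follows from the lack of overlap already stated and adds no separate evidence. The test also treats single arrays as exchangeable, whereas the peptide differed by whole groups. By the same exact test the second Cckbr probe set (p = 0.167) and Hrh2 (p = 0.162, adjusted p = 0.167) did not pass. By limma the second Cckbr probe set differed by 0.33 ± 0.20 (adjusted p = 0.382) and Hrh2 by 0.17 ± 0.06 (adjusted p = 0.174). Hrh2 lay between 1065 and 1514 with the peptide and between 1018 and 1320 without it. Without the double-knockout arrays the same 3 passed, with 1.27 for Cckbr (adjusted p = 0.0271), 3.69 for the first Hdc probe set (adjusted p = 0.0453) and an adjusted p of 0.000245 for the second. The samples with and without peptide also differ in genotype, since wild type carries the gene.

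The genes around the 4 members were read from lists of pathway genes, each counted by its brightest probe set. Of 7 measured genes for histamine storage and breakdown, 0 passed by limma in any of the 7 comparisons. With against without peptide the count was also 0 at an unadjusted p under 0.05, and the median difference was 0.20 against 0.00 for all probe sets. Hnmt, which breaks histamine down by methylation, lay between 76 and 217 over all arrays, and Slc18a1, a vesicular amine carrier, between 177 and 496. The carrier Slc18a2 had no probe set named for that gene alone and was not analysed here.

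Over all probe sets, 2.59% were higher with peptide and 1.99% lower, or 1.27% higher without the double-knockout arrays. Among 17 receptors and ligands of the same families, 2 were higher with peptide than without and 5 lay within the noise (median 0.22). Sst, which encodes somatostatin, was higher by 0.85 ± 0.14 (adjusted p = 0.0157), and Ghrl, the gene of the hormone ghrelin, by 0.50 ± 0.07 (adjusted p = 0.0112). Without the double-knockout arrays Sst passed at 1.26 ± 0.17 (adjusted p = 0.0266), and Ghrl did not pass at 0.36 ± 0.09 (adjusted p = 0.0944). Sst read 16905, 23726 and 15346 in wild type, 5681, 8169 and 6216 with saline, 13649, 13417 and 14138 with gastrin, and 13737, 12221 and 9744 in the double knockout. The saline-infused arrays were below all others. Sst passed as higher in the double than in the saline-infused knockout, although both lack the peptide. Sst fell by 1.47 ± 0.20 in the saline-infused knockout relative to wild type (adjusted p = 0.0132) and rose by 1.06 ± 0.20 under gastrin (adjusted p = 0.0425). Cckar, the CCK1 receptor, which prefers CCK to gastrin, read 2743 ± 420 in wild type, 1866 ± 186 with saline, 2585 ± 250 with gastrin and 2676 ± 221 in the double knockout (SD, n = 3 each). Its saline-infused arrays were below all others, but its differences did not pass, with -0.55 ± 0.13 against wild type (adjusted p = 0.0764).

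Signalling components inside the cell came next. Of 17 measured genes of the gastrin receptor pathway, 0 passed with against without peptide (median 0.10), and of 17 of the H2 receptor pathway 0 passed (median 0.07), both by limma. The counts at an unadjusted p under 0.05 were 2 and 3. Without the double-knockout arrays 2 of the first 17 passed, Itpr2 and Prkce, and 1 of the second, Pde8a, all higher. In the saline-infused knockout relative to wild type Itpr2, an inositol trisphosphate receptor, fell by 1.06 ± 0.20 (adjusted p = 0.0330) and Prkce, a protein kinase C, by 0.54 ± 0.10 (adjusted p = 0.0301). These are the brightest probe sets of each gene. That of Prkce rose by 0.50 ± 0.10 under gastrin (adjusted p = 0.0457), whereas its other probe set differed by -0.47 ± 0.12 (adjusted p = 0.0897), with no overlap, so the direction for Prkce is not settled. Of 5 Itpr2 probe sets, 2 passed as lower in the saline-infused knockout, and the other 3 did not pass. The brightest of both genes were higher in the double knockout than in the saline-infused knockout, by 1.13 ± 0.20 (adjusted p = 0.0148) and 0.65 ± 0.10 (adjusted p = 0.00900).

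At the acid-secreting end of the axis, 7 of 15 measured genes were higher with peptide (median 0.20): Atp4a and Atp4b, the subunits of the proton pump, the potassium channel genes Kcnq1, Kcne2 and Kcnj10, the anion exchanger gene Slc4a2 and the water channel gene Aqp4. Kcnq1 was higher by 0.81 ± 0.17 (adjusted p = 0.0312) and Atp4a by 0.61 ± 0.08 (adjusted p = 0.00668). In the double knockout, also without peptide, Kcnq1 read 3802, 3276 and 2508, against 1598, 2221 and 1216 with saline. It passed as higher there than with saline, and its double-knockout arrays overlapped those of both groups with peptide. Without the double-knockout arrays 4 of the 7 passed, whereas Atp4b, Kcnj10 and Aqp4 did not (adjusted p = 0.0648, 0.136 and 0.0548). In the saline-infused knockout relative to wild type 4 of 15 fell, where 1.37% of all probe sets did, and 5 rose under gastrin, where 0.773% did, with Slc4a2 at 0.77 ± 0.13 (adjusted p = 0.0332). The summed level of 9 parietal cell markers was 182007 to 220157 in wild type and 189891 to 201355 with gastrin. It was 131884 to 144233 with saline and 122235 to 130728 in the double knockout. Both groups with peptide thus lay above both without, as for the first Cckbr probe set and Hdc. Unlike for those, the sum with gastrin lay within the wild-type range. Atp4a, Atp4b and Cblif were by far the brightest of the 9. By its brightest probe set Ppargc1a, also of the 9, passed as lower than wild type in each knockout group, with gastrin too. Of the 9, 6 passed as higher with peptide, or 3 without the double-knockout arrays, where 2.59% and 1.27% of all probe sets did. The part of the sum in the results was not tested. The top of the intensity range was lower on the double-knockout arrays, where the sum of 5 chief cell genes was low too. That chief cell sum was 124199 to 132698 in the double knockout and 178278 to 215833 in wild type. It was 175473 to 197196 with saline and 186997 to 196644 with gastrin. The part of the lower top of the range in the double-knockout parietal sum was not tested. Over the same groups Hrh2 lay at 1065 to 1221 in wild type, 1180 to 1320 with saline, 1481 to 1514 with gastrin and 1018 to 1234 in the double knockout.

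**Figure D3:**
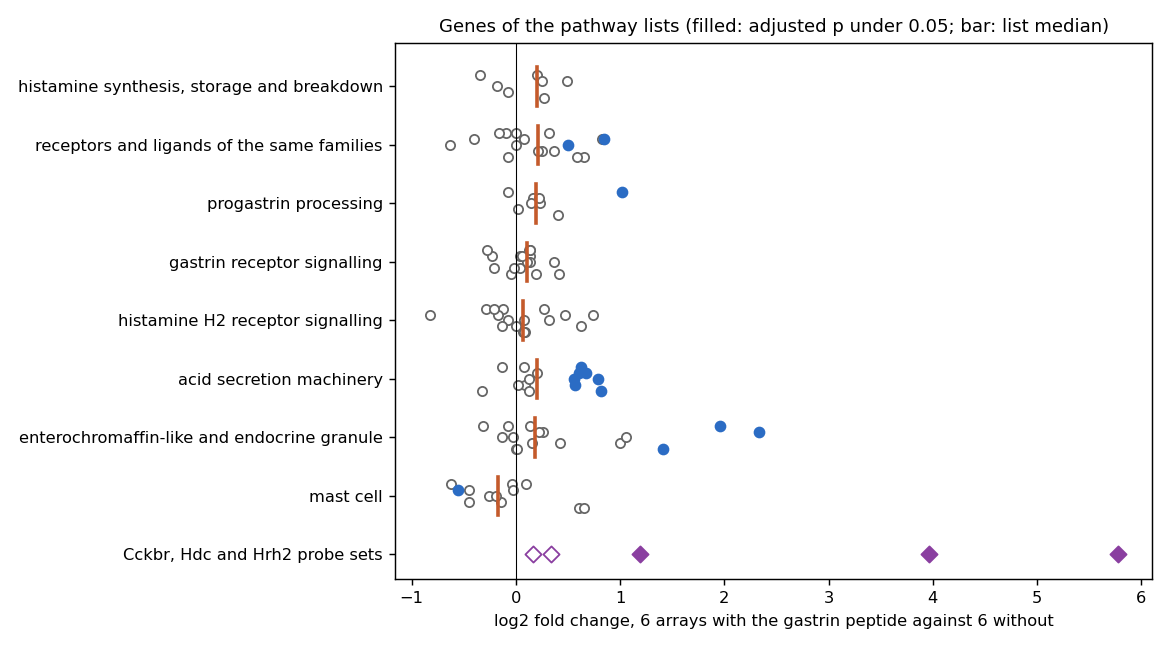
Log2 difference with against without gastrin peptide for the measured genes of the pathway and cell type lists, 1 point per gene, with genes that passed filled, list medians as bars and the Cckbr, Hdc and Hrh2 probe sets as diamonds. The granule list reaches 2.33 at Chgb, whereas the lists of both receptor signalling pathways hold no gene that passed.

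Of 16 measured genes of ECL and other endocrine cell granules, 3 passed as higher with peptide (median 0.19). Chga, the gene of the granule protein chromogranin A, read 6049, 10288 and 7063 in wild type, 2041, 2125 and 2098 with saline, 8765, 13433 and 10235 with gastrin, and 2987, 2499 and 2262 in the double knockout. The groups without peptide lay below the others without overlap. Chga was higher by 1.96 ± 0.15 with peptide (adjusted p = 0.00104), Chgb, which encodes chromogranin B, by 2.33 ± 0.28 (adjusted p = 0.00514), and Resp18, a gene of endocrine secretory cells, by 1.41 ± 0.24 (adjusted p = 0.0178). All 3 also passed without the double-knockout arrays. Chgb read 4587 to 7011 with gastrin and 877 to 1927 in wild type. The summed level of the list was 13806 to 19601 in wild type, 8945 to 9726 with saline, 21818 to 28460 with gastrin and 10126 to 11527 in the double knockout, and its part in the Hdc result was not tested. The difference in this sum between groups with and without peptide was carried largely by Chga and Chgb. Of the 16 genes 13 did not pass with against without peptide, and some, such as Neurod1 at -0.31, went the other way.

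Mast cells also express Hdc. The summed level of 12 mast cell markers was 3950 to 4292 in wild type, 4092 to 4268 with saline, 3547 to 4359 with gastrin and 4265 to 4796 in the double knockout, and the ranges of all 4 groups overlapped. Kit, Gata2 and Mcpt2 were the brightest of the 12 and made up most of this sum, which says little of the dimmer markers. In the comparison with against without peptide, 0 of the 12 were higher and 1 was lower: Mcpt1, a mast cell protease, at -0.55 ± 0.12 (adjusted p = 0.0405). Cpa3, the mast cell carboxypeptidase, read 324 ± 72.5 in wild type and 349 ± 90.5 with gastrin (SD, n = 3). Mcpt1 did not pass without the double-knockout arrays (adjusted p = 0.122). Kit is the receptor tyrosine kinase of mast cells and of other cell types. The brighter of its 2 probe sets fell by 0.56 ± 0.08 in the saline-infused knockout relative to wild type (adjusted p = 0.0145), the direction of Hdc. In the double knockout Hdc was low too, but this Kit probe set read 1209, 1116 and 1057. These values lay above the wild-type values of 956, 1043 and 989, a difference that did not pass. Kit passed as higher in the double than in the saline-infused knockout, and as lower in gastrin-infused mice than in the double knockout. With against without peptide, Kit passed as higher only once the double knockout was left out. Hpgds, a prostaglandin D synthase, read 226 to 254 with gastrin and 92 to 233 on all other arrays, and its difference of 0.78 ± 0.30 from saline did not pass (adjusted p = 0.249). The part of mast cells in the Hdc result was not tested.

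Tissue next to the fundus was also read. The summed level of 8 antral and G cell markers was 4322 to 4649 in wild type, 4081 to 4901 with saline, 4222 to 4966 with gastrin and 5407 to 6117 in the double knockout, above all other arrays. Gata6, a transcription factor gene of this list, was higher there than in wild type by 0.57 ± 0.09 (adjusted p = 0.0133). Its brighter probe set read 2551, 2748 and 2585 in wild type and 4016, 3815 and 3893 in the double knockout. The other 7 genes did not pass in that comparison, and the median difference of the list was -0.04. The higher sum was thus carried largely by Gata6, and the amount of antral tissue was not tested. With regard to the peptide, 0 of the 8 passed by limma, with 2 at an unadjusted p under 0.05. Forestomach markers varied widely within groups, from 6637 to 23579 in wild type and from 9442 to 55391 with saline, from 4060 to 25291 with gastrin and from 4700 to 52845 in the double knockout. Of 11 such genes 0 passed with against without peptide by limma, 1 had an unadjusted p under 0.05, and the median difference was -0.94. Of 5 surface mucous cell genes, 5 fell in the double knockout against wild type, where 2.12% of all probe sets did. These genes are very bright, with Gkn1 at 91922 ± 8012 in wild type and 61236 ± 4380 in the double knockout (SD, n = 3). The highest intensity of an array averaged 100754 in wild type and 69259 in the double knockout. The part of this lower top of the range in the fall was not tested. In the saline-infused and in the gastrin-infused knockout 0 of 5 passed against wild type by limma, and 0 had an unadjusted p under 0.05.

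Progastrin is cut and amidated by a further set of enzymes, of which 8 were measured. With against without peptide 1 passed, Scg5, the gene of a chaperone of proprotein convertase 2, at 1.02 ± 0.18 (adjusted p = 0.0186), and it also passed without the double-knockout arrays, at 1.06 ± 0.14 (adjusted p = 0.0267). In the saline-infused knockout relative to wild type and under gastrin against saline, 0 of the 8 passed by limma, with 2 and 3 at an unadjusted p under 0.05. Pcsk1, a proprotein convertase, was higher in gastrin-infused mice than in the double knockout by 1.01 ± 0.16 (adjusted p = 0.0114). The median of the list with against without peptide was 0.19.

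Among the 11282 candidate probe sets, those nearest to each member were found by the root mean square of the differences between log2 profiles centred over the 12 arrays. The first Cckbr probe set was nearest to Cox7a1 (0.227), Hamp2 (0.300), Mecr (0.309), Igfbp2 (0.309) and Scg5 (0.315), where the median over all candidates was 0.706. Cox7a1, a subunit of cytochrome c oxidase, read 4230 ± 237 in wild type, 1939 ± 203 with saline, 4700 ± 277 with gastrin and 2234 ± 379 in the double knockout (SD, n = 3 each). Hamp2, a hepcidin gene, read 7180 ± 1871, 3953 ± 460, 11570 ± 2869 and 3354 ± 649 in the same order. It shared with Cckbr the order of the groups in which gastrin-infused mice were highest and wild type came next. The search picked these genes for such likeness, so the shared order is no separate result.

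The first Hdc probe set was nearest to the second (1.30), followed by Chgb (1.30), Agt (1.31), Ccn3 (1.36) and Chga (1.40), against a median of 2.25. Agt, which encodes angiotensinogen, read 407 ± 256 in wild type, 110 ± 25.2 with saline, 614 ± 119 with gastrin and 94.0 ± 31.1 in the double knockout. Ccn3, a matricellular protein gene, read 401 ± 64.5, 98.3 ± 3.06, 686 ± 57.8 and 154 ± 6.43 (SD, n = 3). The second Hdc probe set was nearest to the first, Chgb (1.77), Rarres2 (1.78), Agt (1.89) and Ccn3 (1.90), with a median of 2.95. For Gast, readable in wild type only, the nearest probe sets were those of Ywhaz and Dbp, the latter at 1.51 against a median of 2.15. The second Cckbr and the Hrh2 probe sets spread over too narrow a range for this search.

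**Figure D4:**
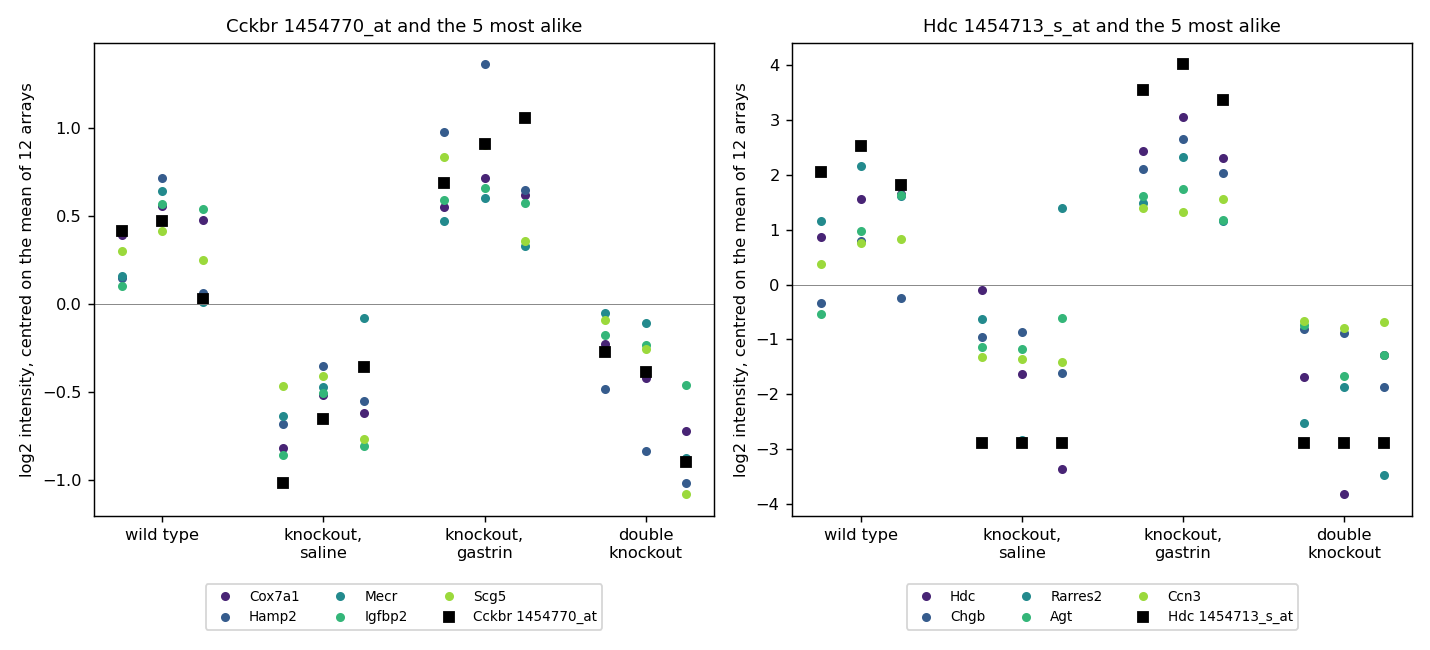
Centred log2 intensity on the 12 arrays of the first Cckbr and the second Hdc probe set (squares) with the 5 probe sets nearest to each (circles). The squares of Hdc sit at the floor on all 6 arrays without gastrin peptide, where the nearest genes stay spread above and below it.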

How the data were processed

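The values are the intensities that the authors deposited, 1 per probe set and array, linear, in whole numbers, some below 0. How they were scanned, scaled and summarised is not given in the sources used here. Gene symbols come from the platform annotation; promoters and gene names come from RefSeq, build GRCm38.p6.

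The 64 control probe sets were left out of tests and no scaling was added. Values under 16 were raised to 16 and log2 taken. A mean per group was fitted over all 12 arrays (limma 3.58.1, R 4.3.3; 8 residual and 1.10 prior degrees of freedom) and 7 contrasts were adjusted by Benjamini-Hochberg over 22626 probe sets. Noise was set, for each array, at its percentile 1 with the sign turned. Where all values of a group, or its mean, lay within it, a bound replaces the fold. The script was tested on simulated data. Members, 14 gene lists and tests were chosen with earlier results of these data known. All members and the genes of these lists could be named. Nearest probe sets were the 5 with the smallest distance among those with 1 symbol and a group mean at or above the array median, for members whose group means spread over more than 1 log2 unit. Comparisons share arrays. Other floors, scalings, filters, models and left-out arrays were tried. Figures were drawn with matplotlib 3.10.9 (Python 3.11.15).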

Additional observations from a re-analysis of the deposited data

How the results depend on the processing

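Of the alternatives, quantile normalization, centring of the arrays, floors of 1 and 64, an intensity trend in the prior and the Gapdh ratio as a covariate left the number of the 6 probe sets past the threshold within 1.5 times in each comparison. With only the groups compared in the fit it was 1 for wild type against the saline-infused knockout, 1 for gastrin over saline infusion, 0 for gastrin-infused mice against wild type and 1 for gastrin-infused mice against the double knockout. For gastrin-infused mice against wild type it was 1 with the generalised logarithm and 1 with a filter at the median, which removes Gast. Leaving out 1 array at a time gave 1 to 2 for gastrin over saline, 1 to 2 for gastrin-infused mice against wild type and 2 to 4 against the double knockout. The second Cckbr probe set reversed between the saline-infused knockout and wild type with the Gapdh ratio as a covariate (-0.28), when wild-type replicate 2 was dropped (-0.20) and when saline-infused replicate 3 was (-0.03), and ranged up to 0.23 over the arrays left out. Between the double and the saline-infused knockout, the first Cckbr probe set reversed without saline-infused replicate 1 (-0.013, the others up to 0.35), and the first Hdc probe set without saline-infused replicate 1 (0.24) or double-knockout replicate 2 (0.22), with -1.40 as the lowest. The cause of these changes was not tested.

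The replicate numbers did not pair the samples: same-numbered samples correlated between -0.12 and 0.20 in their deviations from the group means, over 0.1 in 1 of 18 pairs. With the replicate block the number for gastrin-infused mice against wild type was 1, and calls over all probe sets fell from 470 to 239 (saline-infused knockout against wild type), from 282 to 140 (gastrin over saline) and from 25 to 8 (gastrin-infused against wild type). Over all alternatives these 3 counts lay between 22 and 827, 20 and 705, and 3 and 74. They lay between 43 and 1299 for the double knockout against wild type (936 as reported), 208 and 1822 against saline (1352), 295 and 1736 for gastrin-infused mice against the double knockout (1319), and 445 and 1502 with against without peptide (1037). Leaving out 411 probe sets at the floor on all arrays, and leaving out the double knockout, were chosen after seeing the data. The number of arrays, 3 per group, limits the precision, and Gast and Hdc below the noise have only a bound.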
